A study of Homo sapiens with 2 samples.

Results

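The RAB small GTPase genes were followed on 2 one-color Agilent arrays of the human retinoblastoma line Y79. Members were the transcript probes whose gene symbol is RAB, a number and at most a further letter and digit, which took 60 of the 18833 gene symbols on the arrays and 100 probes, each printed once. One array carried RNA of siRNA-untreated Y79 cells and the other RNA of Y79 cells 48 h after Ep-CAM siRNA, with 1 array per group. Y79 is an established suspension line. The study describes both cultures as exposed beforehand to AZC, a DNA demethylating agent, whereas the sample labels name the siRNA treatment alone. Whether the reference culture had received a nonsilencing siRNA is described in more than one way, and the labels call it untreated. With 1 array per group no test between the groups was possible, no p-value is given, and the precision of each ratio is bounded by the few arrays.

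RAB proteins form the largest branch of the RAS superfamily and mark the membranes between which vesicles travel. Each is carried on membranes by prenyl groups, is switched on by an exchange factor that loads GTP, recruits effectors such as motors, tethers and fusion regulators, and is switched off by a GTPase-activating protein, after which a GDP dissociation inhibitor returns it to the cytosol. In photoreceptors, the lineage that retinoblastoma resembles, RAB8 proteins act in the delivery of rhodopsin carriers to the cilium, RAB3A sits on synaptic vesicles, RAB28 is linked to the shedding of outer segment discs, and loss of the escort protein encoded by CHM causes choroideremia.

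The labelled cell type and the siRNA label were checked first. Of 8 photoreceptor lineage markers chosen for the check, 7 were on the arrays by symbol and 5 (CRX, OTX2, ARR3, PDE6B and GUCA1A) had a probe well above background on both. The processed signal of CRX was 86.8 untreated and 68.7 treated, and that of OTX2 was 70.4 and 52.0. NRL and NEUROD1 were dim on both arrays. Markers of other cell types were measured as well, with 5 of 5 epithelial, 4 of 5 fibroblast and 5 of 5 leukocyte genes having a probe well above background on both arrays. Only LYZ among the markers passed the threshold of a log2 ratio of 1 in either direction, with a signal of 3045 on the untreated and 799 on the treated array (log2 ratio -1.97). The part of other cell types in the RAB results was not tested. The single probe for the siRNA target, listed under the older symbol TACSTD1, was dim on both (signals 15.6 and 12), so that the target did not check the label.

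Each signal given here is the processed brightness of a spot in arbitrary units after background subtraction. For ratios, each array was divided by its median over transcript probes (48.8 untreated, 50.0 treated), and the log2 ratio is treated over untreated, so that -1 is a signal lowered to 50% and 1 a doubled one. A probe is called measured where it was well above background on both arrays. The technical spread of a log2 ratio was 0.14, the median SD over 190 probes with repeated spots. The scanner software's own error model gave a median SE of 0.22 for RAB probes, and the SE values below come from that model. These errors describe spots and not cultures.

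Of the 100 RAB probes, 69 were measured on both arrays, 2 were well above background on the untreated array only, 2 on the treated array only, and 27 on neither. Hence 50 of the 60 genes had a measured probe, and 1 gene (RAB39B) cleared background on the treated array only. Another 9 genes (RAB3C, RAB4A, RAB6C, RAB9A, RAB9B, RAB12, RAB13, RAB33B and RAB39) were dim at every probe and have no ratio. Among the 73 probes with a ratio or a bound, 1 was called higher (log2 ratio 1 or more), beside 1.27% of the 29345 probes on the arrays that cleared background on 1 array or both and were not saturated on both. In the other direction 3 were called lower at -1 or less, beside 0.927% of those 29345. The probe called higher was that of RAB40B, and those called lower belonged to RAB15, RAB1B and RAB8A. No RAB spot was saturated or marked as an outlier.

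The measured RAB probes had a median log2 ratio of -0.16 (SD 0.45, n = 69 probes), beside -0.03 (SD 0.33, n = 26993) for all measured probes. Their quartiles were -0.39 and 0.06, against -0.19 and 0.12 for all probes. Below 0 lay 45 of the 69 RAB probes (65.2%) and 55.2% of all probes. At least 0.5 away from 0 in either direction lay 12 RAB probes (17.4%) and 10.7% of all probes. The median of the RAB probes was -0.06 under quantile normalization (all probes 0.01), -0.08 with the raw intensities of the series table (all -0.04) and -0.06 with a normexp background correction fitted without 1 spot (all -0.02). With normexp fitted on all spots it was -0.16, above the -0.20 of all probes, so that the order of the medians turned there.

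**Figure D1:**
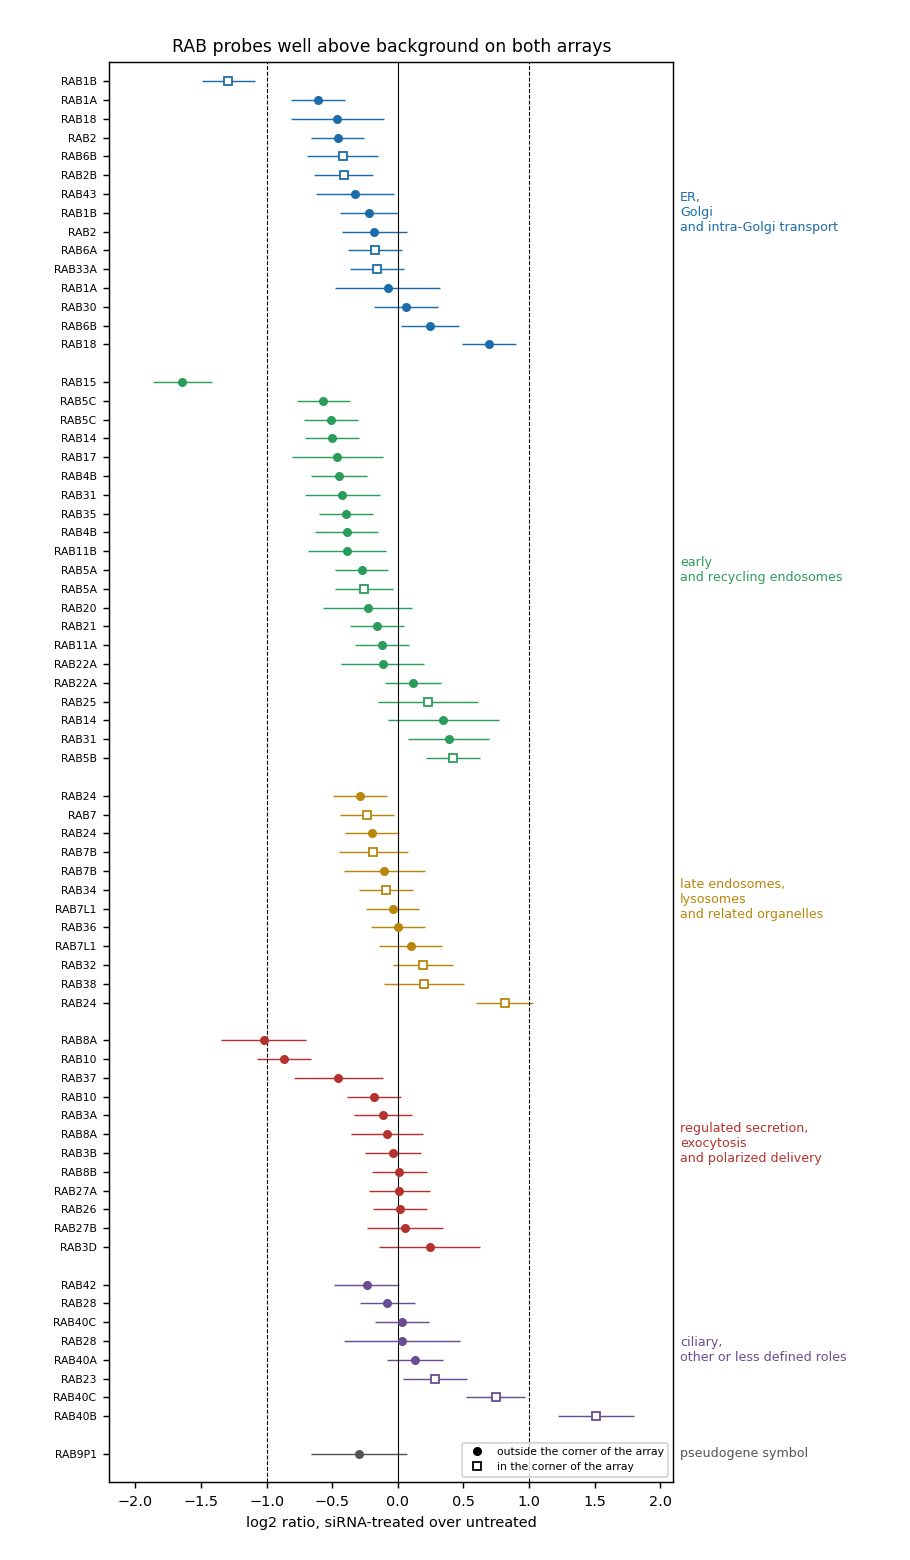
Log2 ratio, siRNA-treated over untreated, of the 69 RAB probes measured on both arrays (x axis), grouped by role, with 1 row per probe. Bars are the SE of the scanner software's error model, dashed lines mark log2 ratios of -1 and 1, and open squares are probes in rows 355 to 532 and columns 43 to 85 of the array; 4 points lie past the dashed lines.

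The RABs of the endoplasmic reticulum and Golgi, which carry the early secretory pathway, comprised 12 genes. They had 24 probes, of which 15 in 10 genes were measured, with a median log2 ratio of -0.22 and 12 of 15 below 0. RAB1B, which acts in transport from the endoplasmic reticulum to the Golgi, had the lowest value of the group. Its probe A_32_P129288 read 4179 on the untreated and 1748 on the treated array, a log2 ratio of -1.29 (SE 0.20). The value sat at the threshold with the raw intensities of the series table, and it was -1.60 with normexp background correction and -0.98, no longer called, with a normexp fit that leaves out 1 spot. The other RAB1B probe, A_23_P64090, read 106 and 93.7, a log2 ratio of -0.22 (SE 0.22). One of the probes passed the threshold and the other lay within 1 SE of 0. The paralog RAB1A read 1037 and 696 at A_23_P382148 (-0.61, SE 0.20; -1.11 with normexp) and 20.2 and 19.6 at A_23_P250283 (-0.08, SE 0.40). The highest value of the group was a probe of RAB18, a RAB of the endoplasmic reticulum and lipid droplets, which read 187 on the untreated and 310 on the treated array (0.69, SE 0.21). A second RAB18 probe read 30.6 and 22.8 (-0.46, SE 0.35), in the opposite direction. With normexp these RAB18 values were 0.07 and 0.05, both above 0. They were 0.48 and -0.19 with the raw series table, again in opposite directions. With the normexp fit without 1 spot they were 0.50 and -0.16.

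RAB43, also of this group, had 4 probes. One was measured (43.8 and 35.7, log2 ratio -0.33). Another was well above background on the untreated array only, with 29.3 against 17.6, a log2 ratio of -0.77 (SE 0.39). The remaining pair of probes was dim on both arrays and shares a run of 40 bases.

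The RABs of early and recycling endosomes were the largest group, with 16 genes and 28 probes, 21 of them measured in 15 genes. Their median log2 ratio was -0.28, and 16 of 21 probes lay below 0. RAB15, a regulator of early and recycling endosomes found mainly in neurons, had the lowest value of all RAB probes. Its only probe read 208 on the untreated and 68.3 on the treated array, a log2 ratio of -1.64 (SE 0.23). It was called lower in every setting, but the value was -1.03 with the raw series table, -1.15 with normexp and -1.08 with the normexp fit without 1 spot. No other RAB15 probe was on the arrays to set beside it. RAB5C, a RAB of early endosome fusion, had the next lowest value and a pair of probes with like ratios. They read 4353 and 3008 (-0.57, SE 0.20), and 642 and 462 (-0.51, SE 0.20). RAB5A, its paralog, read 1776 and 1503 at one probe (-0.28) and 96.7 and 83.0 at the other (-0.26). The measured probe of RAB5B read 222 and 304 and had the highest log2 ratio of the group, 0.42 (SE 0.21). It lies in the array corner described below (row 465, column 49). The other RAB5B probe was dim on both arrays with 8.94 and 6.13. With normexp the RAB5B value was -0.06, and both RAB5C probes were called lower. The RAB5B value was 0.39 with the raw series table and 0.37 with the normexp fit without 1 spot. No RAB5C probe was called lower in either of these settings. RAB4B, of rapid recycling, read 144 and 108 at one probe (-0.45) and 88.5 and 69.2 at the other (-0.39). RAB35 read 287 and 223 at its measured probe (-0.40) and was at least 1.42-fold lower on the treated array at the other, which read 24.3 and 12.6. At RAB11A, the main RAB of slow recycling, one probe read 4933 and 4647 (-0.12, SE 0.20), while the other was dim on both arrays with 3.06 and 3.53.

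The RABs of late endosomes, lysosomes and related organelles comprised 10 genes and 16 probes, of which 12 in 8 genes were measured. Their median log2 ratio was -0.06, with 7 of 12 below 0. Both the lowest and the highest value belonged to RAB24, a RAB linked to autophagy. A_23_P61823 read 657 and 550 (-0.29, SE 0.20), A_24_P52111 read 3882 and 3470 (-0.20, SE 0.20), and A_23_P21072 read 105 and 189 (0.81, SE 0.22). Of these 3 probes, the last stood apart from the others. It is listed under a sequence record without a RefSeq match, unlike the others, and lies in the array corner described below. In the same order the values were -0.71, -0.94 and 0.42 with normexp. They were -0.17, -0.33 and 0.53 with the raw series table. With the normexp fit without 1 spot they were -0.18, -0.30 and 0.75. RAB7, listed under the older symbol of RAB7A and needed for late endosome and lysosome fusion, read 327 and 284 (-0.24, SE 0.21). RAB32 and RAB38, which act in the making of melanosomes, had log2 ratios of 0.19 and 0.20, at probes in the array corner described below. The other RAB32 probe was dim on both arrays.

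The RABs of regulated secretion, exocytosis and polarized delivery comprised 13 genes and 20 probes, of which 12 in 10 genes were measured. Their median log2 ratio was -0.06, with 7 of 12 below 0. RAB8A, which acts in ciliary and surface delivery, had the lowest value. Its probe A_23_P164752 read 52.4 on the untreated and 26.4 on the treated array, a log2 ratio of -1.02 (SE 0.33). A_24_P190424, the other RAB8A probe, read 45.5 and 44.1 (-0.08, SE 0.28). The lower value sat at the threshold within its error, and without scaling it was -0.99 and was no longer called. It was -0.35 with the raw series table, -0.16 with normexp and -0.32 with the normexp fit without 1 spot. RAB8B, the paralog, read 169 and 174 (0.01, SE 0.21). RAB10, of surface delivery, read 2437 and 1369 at A_23_P165879 (-0.87, SE 0.20; -1.42 with normexp) and 2196 and 1984 at A_24_P319675 (-0.18, SE 0.20). RAB3A, RAB3B, RAB27A and RAB27B act on synaptic vesicles or secretory granules. RAB3A read 93.4 and 88.4 (-0.11, SE 0.22), the measured probe of RAB3B 104 and 104 (-0.04, SE 0.22), RAB27A 69.1 and 71.3 (0.01, SE 0.23) and RAB27B 39.9 and 42.5 (0.06, SE 0.29). RAB37, also of secretory granules, read 37.3 and 27.9 (-0.45, SE 0.34). RAB3D had the highest measured value of the group, with 26.1 and 31.6 (0.24, SE 0.38), but this value was -0.12 with the raw series table and -0.06 with the normexp fit without 1 spot. The other RAB3D probe was well above background on the treated array only, with 17.2 and 25.8 (0.54, SE 0.51). It lies in the array corner described below.

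The RABs of ciliary, other or less defined roles comprised 8 genes and 11 probes, of which 8 in 6 genes were measured. This was the one role group whose median lay above 0 (0.08), with 2 of 8 probes below 0. Its highest values, at RAB40B, 1 RAB40C probe and RAB23, came from the array corner described below. The part of array position in this median was not tested. RAB40B, a RAB with a SOCS box that joins a ubiquitin ligase, had the highest value of all RAB probes. Its only probe read 35.6 on the untreated and 104 on the treated array, a log2 ratio of 1.51 (SE 0.29). The value was 0.73 with the raw series table, 0.57 with normexp and 0.75 with the normexp fit without 1 spot, so that the call was lost under each of these. Of its paralogs, RAB40C read 76.1 and 131 at one probe (0.75, SE 0.23) and 197 and 206 at the other (0.03, SE 0.21). The RAB40C values were 0.24 and -0.36 with normexp and 0.45 and -0.06 with the raw series table. With the normexp fit without 1 spot they were 0.46 and 0.02. RAB40A, another paralog, read 150 and 169 (0.13, SE 0.21). The lowest value of the group was that of RAB42, with 67.5 and 58.7 (-0.24, SE 0.25). RAB42 was -0.07 with normexp, -0.06 with the raw series table and -0.03 with the normexp fit without 1 spot. With normexp a RAB40C probe (-0.36) lay below it. RAB23, an inhibitor of Hedgehog signaling tied to cilia, read 63.3 and 79 (0.28, SE 0.24). RAB28 had log2 ratios of -0.08 and 0.03 at its probes. At RAB39B, 1 probe was well above background on the treated array only, with 17.8 and 23.3 (0.35, SE 0.47), and the other was dim on both. The pseudogene symbol RAB9P1, outside the role groups, read 30.4 and 25.3 (-0.30, SE 0.36). Its value was 0.07 with normexp, -0.08 with the raw series table and -0.13 with the normexp fit without 1 spot.

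**Figure D2:**
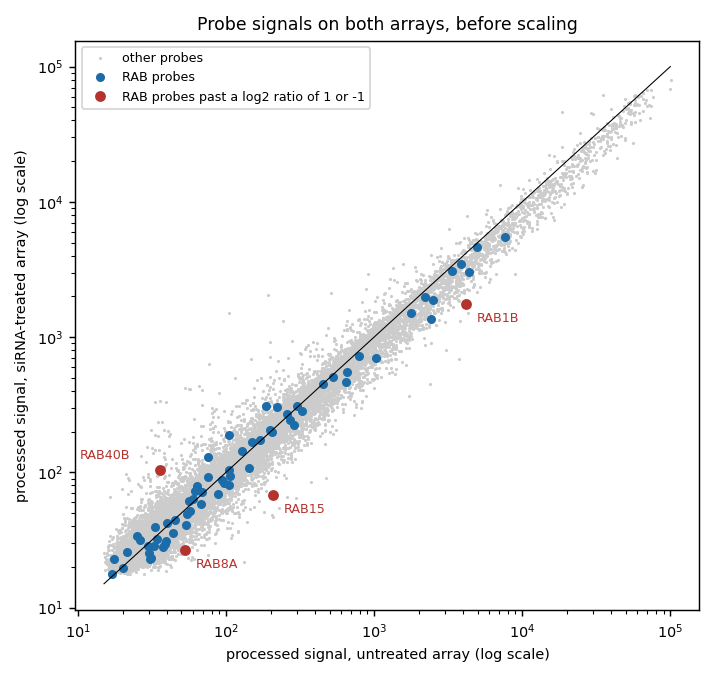
Processed signal of each probe measured on both arrays and printed once, untreated array on the x axis and siRNA-treated array on the y axis, both on log scales and before scaling. RAB probes are blue, those past a log2 ratio of 1 or -1 are red and named, other probes are grey, and the line marks equal signals; RAB1B at 4179 and 1748 lies below it.

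The probes that fell on the conserved nucleotide-binding boxes of the GTPase fold are shown for some of the genes that the results turn on, because these are the places where paralogs resemble each other. The boxes called G4 and G5 bind the guanine base. A translation of each probe in its stop-free frames found a G4 box in 5 RAB probes and a G5 box in 4 of 100, against 7 and 7 of all 41000 probes of 60 bases (0.0171% each), and 3 of these RAB probes are written out. The G1 box was found in 0 RAB probes and in 13 of all probes (0.0317%), and the G3 box in 0 of all probes. A match is a description of the probe alone. Bases of the box are in capitals, each probe is written 5′ to 3′ in the direction of the transcript, and positions follow the design of the array (hg17). The RAB8A probe A_23_P164752 (log2 ratio -1.02) lies at chr19:16099274-16099333 and carries a G4 box. The RAB10 probe A_24_P319675 (-0.18) at chr2:26262391-26262450 and the RAB24 probe A_24_P52111 (-0.20), whose ends at chr5:176661586-176661785 enclose more bases than the probe holds, carry a G5 box.
RAB8A: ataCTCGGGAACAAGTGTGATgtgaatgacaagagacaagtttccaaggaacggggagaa
RAB10: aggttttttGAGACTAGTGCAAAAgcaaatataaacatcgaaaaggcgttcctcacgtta
RAB24: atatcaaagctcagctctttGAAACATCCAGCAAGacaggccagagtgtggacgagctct
No pair of probes of different RAB genes shared a run of 15 bases or more. Within genes, 3 pairs did. The RAB24 probe shown above shares 29 bases with A_23_P21072, and yet their log2 ratios were -0.20 and 0.81. The RAB3B probes share 20 bases, and one read 104 and 104 whereas the other was dim on both arrays with 3.82 and 4.37.

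Of the 50 RAB genes with a measured probe, 32 had a single one and 18 had at least 2. The log2 ratios of a gene's probes spanned 0.5 or more in 10 of these 18, beside 23.9% of the 3800 genes on the arrays with as many measured probes. The counts were 6 of 18 beside 11.1% with the raw series table, and 4 of 18 beside 11.4% with the normexp fit without 1 spot. The median span was 0.60 for the RAB genes and 0.27 for all such genes. In RAB24, RAB40C and RAB2, 1 of the measured probes is listed under a sequence record without a RefSeq match, unlike the rest. In decreasing order of the span the 10 were RAB18 (1.15), RAB24 (1.10), RAB1B (1.07), RAB8A (0.94), RAB14 (0.85), RAB31 (0.81), RAB40C (0.71), RAB10 (0.68), RAB6B (0.67) and RAB1A (0.53). The difference between the extreme probes was over 2 SE of the error model in 6 of the 10, but not in RAB14, RAB31, RAB6B and RAB1A. In 5 of the 10 the extreme probes lay on opposite sides of 0. With normexp those of RAB18 and RAB6B no longer did, while those of RAB14 still did. With the fit without 1 spot those of RAB14 no longer did, while those of RAB18 and RAB6B still did. For RAB14, a RAB between Golgi and endosomes, the probes read 7645 and 5525 (-0.50; -1.10 with normexp) and 17.6 and 22.9 (0.35, SE 0.42). For RAB31, a RAB between the trans-Golgi network and endosomes, they read 38.8 and 29.7 (-0.42, SE 0.29) and 25.1 and 33.6 (0.39, SE 0.31). For RAB6B, a Golgi RAB of neurons, they read 53.5 and 40.9 (-0.42, SE 0.27) and 76.1 and 92.5 (0.25, SE 0.22). The other 8 genes spanned from 0.02 (RAB5A) to 0.28 (RAB2), with RAB4B, RAB5C, RAB7B, RAB28, RAB7L1 and RAB22A between them. With normexp the genes changed places in part, as RAB2, RAB5A and RAB28 spanned 0.5 or more while RAB6B, RAB8A, RAB18 and RAB31 did not (9 of 18, beside 29.0% of all such genes). Neither RAB1B nor RAB8A was called lower at a second probe, and RAB15 and RAB40B had no second probe, so that 0 of the 4 calls was repeated by another probe of its gene.

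**Figure D3:**
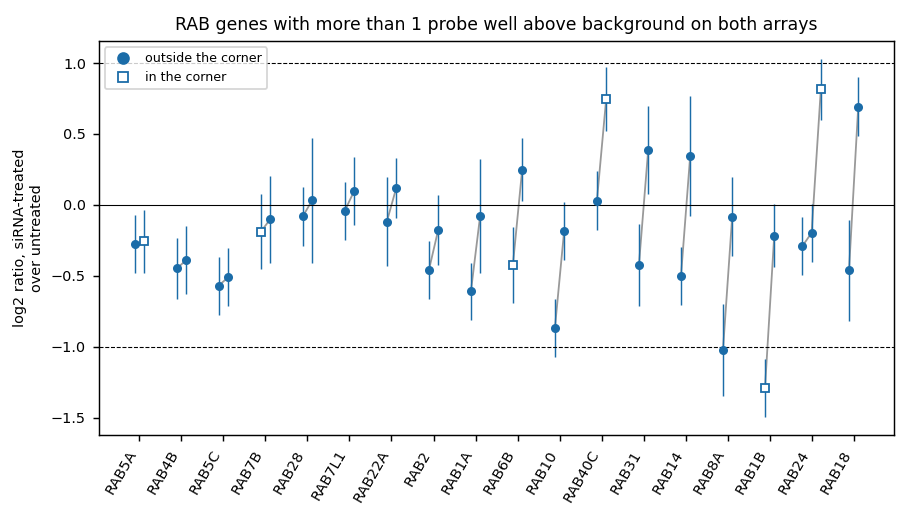
Log2 ratio, siRNA-treated over untreated (y axis), of each measured probe of the 18 RAB genes with more than 1, ordered by the span between their probes (x axis). Bars are the SE of the error model, open squares are probes in rows 355 to 532 and columns 43 to 85, dashed lines mark -1 and 1, and grey lines join probes of a gene; spans run from 0.02 at RAB5A to 1.15 at RAB18.

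Position along the transcript did not order these differences in a single direction. For 17 RAB genes with coordinates, the most 3′ minus the most 5′ probe had a median of -0.06 and was below 0 in 10, beside a median of 0.01 and 49.1% below 0 for 3700 genes on the arrays. A dim probe beside a measured one was found in 12 RAB genes, so a dim probe alone did not show that a RAB transcript was low. The 27 dim RAB probes had a median GC content of 36.7% and the 69 measured ones of 45.0%, and the same medians were found over all dim and all measured probes of the arrays.

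Position on the array was compared next, as calls were unevenly spread over it. In the corner spanning rows 355 to 532 and columns 43 to 85, 5.34% of all probes that cleared background on 1 array or both were called higher and 2.17% lower, while outside it 0.435% were called higher and 0.673% lower. Of the RAB probes with a ratio or bound, 18 lay in the corner, with 1 higher (RAB40B, row 479, column 76) and 1 lower (RAB1B, row 427, column 84). Outside it lay 55, with 0 higher and 2 lower (RAB15, row 192, column 3, and RAB8A, row 146, column 23). The SD of the log2 ratio in the corner was 0.61 for 17 measured RAB probes and 0.51 for all probes, and outside it 0.37 for 52 RAB probes and 0.29 for all. The RAB median was -0.09 in the corner and -0.17 outside it. The part of the array position in each corner value was not tested.

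Spots within 4 rows and 4 columns of the called RAB spots gave a closer view. Around RAB40B, 41 measured neighbors had a median log2 ratio of 0.19 (SD 0.62), and 4 of them were called higher. Around the RAB1B spot, 30 neighbors had a median of -0.26 (SD 0.39), and 2 were called lower. The spots near RAB15 and RAB8A were quieter. RAB15 had 34 neighbors with a median of 0.05 (SD 0.22) and RAB8A 59 with a median of -0.09 (SD 0.25), and 0 of either set were called. Around the RAB24 probe at 0.81 (row 455, column 81), 13 of 45 neighbors were called higher and 2 lower, with an SD of 0.89. Around the RAB40C probe at 0.75 (row 532, column 43), 4 of 29 were called higher and 3 lower. Of the 10 genes with a wide span, 4 (RAB1B, RAB6B, RAB24 and RAB40C) had an extreme probe in the corner and 6 did not. With the corner left out, 6 of 13 RAB genes spanned 0.5 or more, beside 18.0% of 2806 genes.

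**Figure D4:**
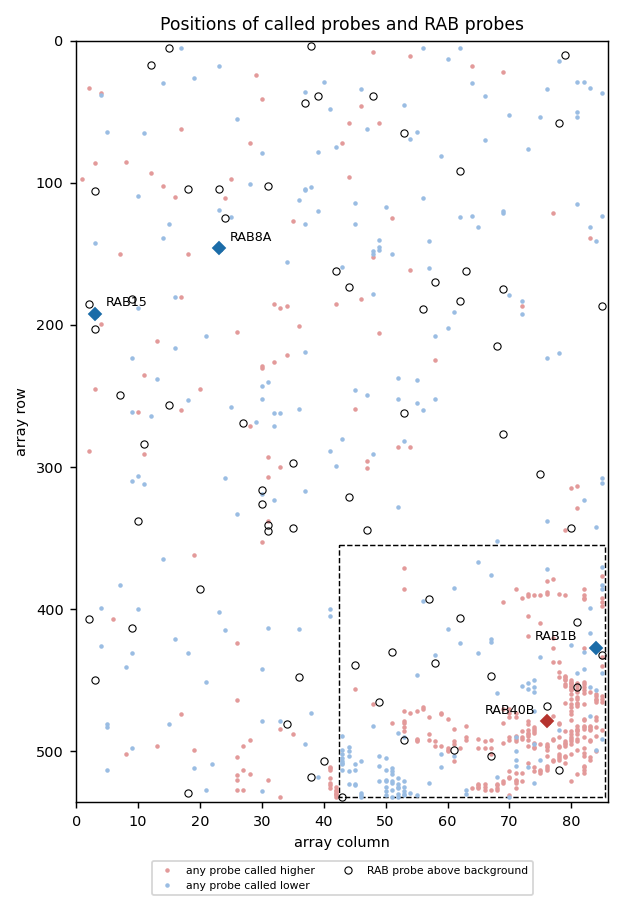
Position on the array, by column (x axis) and row (y axis), of all once-printed probes called higher (light red) or lower (light blue). Open circles are RAB probes that cleared background on 1 array or both, and filled diamonds are the 4 called RAB probes. The dashed box marks rows 355 to 532 and columns 43 to 85, where 5.34% of probes that cleared background on 1 array or both were called higher; RAB40B and RAB1B lie inside it and RAB15 and RAB8A outside.

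The ratio also moved with the brightness of the spot. Among probes with a geometric mean signal of 1000 or more, all 10 RAB probes lay below 0 with a median of -0.37, beside a median of -0.24 and 78.4% below 0 for the 2172 probes of that brightness. From 200 to 1000 the RAB median was -0.09 (n = 15), from 50 to 200 it was 0.01 (n = 23), and under 50 it was -0.12 (n = 21). For all probes the corresponding medians were -0.02, -0.02 and 0.00. Quantile normalization, which makes both arrays' distributions of signals equal, gave a RAB median of -0.06. It turned the sign of the RAB10 probe A_24_P319675 (-0.18 to 0.05) and of the RAB24 probe A_24_P52111 (-0.20 to 0.12). The other bright RAB10 probe stayed below 0 (-0.87 to -0.66). The RAB1B probe came to lie at the threshold and was still called lower.

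The genes that act on RABs or on their behalf were taken from 4 lists with 115 symbols, of which 98 were on the arrays with 184 probes. Of the 123 probes that cleared background on 1 array or both, 0 were called higher and 0 lower, beside 1.27% and 0.927% of all such probes. The median log2 ratio over their 114 measured probes was 0.01. The prenylation, escort and recycling genes had 5 measured probes with a median of -0.05, from -0.43 at RABGGTB, a subunit of the geranylgeranyl transferase, to 0.16 at RABAC1. The exchange factors had 33 with a median of 0.00, from -0.76 at GAPVD1, an exchange factor for RAB5, to 0.52 at DENND1B, one for RAB35. The GTPase-activating proteins had 26 with a median of 0.00, from -0.53 at RABGAP1L to 0.63 at TBC1D5. The effectors had 50 with a median of 0.04, from -0.80 at SYTL4 to 0.84 at SYTL1, both of them synaptotagmin-like proteins that bind RAB27. Both measured probes of SYTL1 lay above 0, with 447 and 819 at one (0.84, SE 0.20) and 655 and 1140 at the other (0.76, SE 0.20). SYTL4 read 64.7 and 38 at its only probe, which lies in the corner (-0.80, SE 0.26). GAPVD1 read 389 and 236 at its lowest probe (-0.76, SE 0.21), 160 and 128 at another (-0.36, SE 0.21) and 429 and 485 at a further one (0.14, SE 0.20), so its probes differed as well. None of these values passed the threshold.

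**Figure D5:**
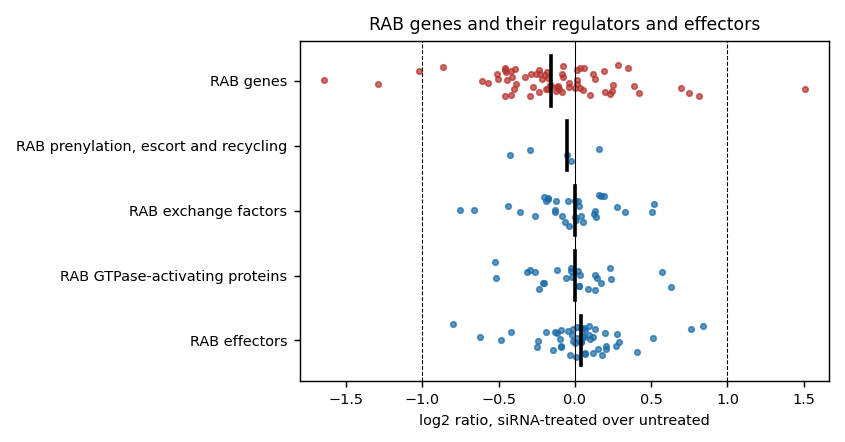
Log2 ratio, siRNA-treated over untreated (x axis), of each probe measured on both arrays for the RAB genes (red) and for the 4 lists of their regulators and effectors (blue), with black bars at the medians and dashed lines at -1 and 1. The vertical scatter within a row carries no value; RAB probes reach from -1.64 to 1.51, and 0 probes of the 4 lists lie past the dashed lines.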

How the data were processed

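Total RNA of 1 siRNA-untreated and 1 Ep-CAM siRNA-treated Y79 culture was measured on 2 one-color Agilent arrays. The deposited scanner files hold spot intensity values that the authors made with Agilent Feature Extraction (9.5.3.1 per the file headers, another version in the sample text), background-subtracted and not scaled between arrays. The deposited table of the whole series equalled the raw median intensity of all 40736 once-printed probes (column medians 120 untreated and 123 treated), with no background subtraction, scaling or centring, and was used as an alternative only.

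Control spots and outliers (117 untreated, 131 treated) were dropped. Signals were scaled to the array median, floored at 0.01, taken to log2 and averaged over repeated spots. The deposited flag had to mark 50% or more of a probe's spots as well above background. On 1 array only, the dim side was set to the higher of its own signal and the lowest signal well above background (14.9 untreated, 17.5 treated), giving a bound. Where its own signal was the higher, as at RAB3D, RAB39B and RAB43, the value is the observed ratio and not a bound. Of the spots, 70.4% and 68.0% were well above background. Calls were made at log2 ratios of 1 and -1. Members and lists were chosen with earlier results of these data known. Named genes were those past 1 or -1, those whose probes spanned 0.5 or more, the extremes of each role group and the dim RABs. All other named genes were added after their values were seen. Symbols were looked up by accession in RefSeq (GRCh38.p14), where 94 of 100 RAB probes matched and 5 symbols had changed. The others, 1 probe each of RAB2, RAB3D, RAB5B, RAB9B, RAB24 and RAB40C, are listed under other sequence records and kept the symbol of the array. Alternatives were other scalings, normexp background correction (limma 3.58.1, R 4.3.3, offset 50), other filters and thresholds, and the arrays without the corner. After the data were seen, a normexp fit was added that leaves out the 1 spot below its surrounding background. The calling steps were run on simulated large changes at brighter spots, with no effect of array position. That run does not bear on calls near the threshold, at dim spots or in the corner. Python 3.11.15, pandas 2.3.3 and numpy 2.4.6 were used.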

Additional observations from a re-analysis of the deposited data

How the results depend on the processing

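The median log2 ratio of the RAB probes was negative under each alternative that recomputed it, from -0.06 to -0.16. With normexp it was -0.16 beside -0.20 for all measured probes, so the sign there is not particular to RAB probes. The other scalings left the counts within 1.5 times. RAB probes called higher, 1 as reported, were 0 with normexp, 0 with the raw values of the series table, 0 without the corner, 0 with the normexp fit that was chosen after seeing the data and leaves out 1 spot (the added fit), 3 with no filter on dim probes and 4 with ratios above 1.5 and below 0.55. RAB probes called lower, 3 as reported, were 8 with normexp (RAB1B, RAB15, both RAB5C probes and 1 probe each of RAB1A, RAB2, RAB10 and RAB14) and 1 with the added fit. RAB genes with a span of 0.5 or more, 10 as reported, were 6 with the series table, 6 without the corner and 4 with the added fit. With no filter they were 15 of 34, beside 38.9% of 7152 genes. Regulator and effector genes called, 0 as reported, were 3 with normexp, 9 with no filter and 4 with the other ratios. All probes called, 644 as reported, were 1101 with normexp, 169 with the series table, 2066 with no filter, 1672 with the other ratios, 265 without the corner and 204 with the added fit. Split into higher and lower, these were 372 and 272 as reported, 45 and 1056 with normexp, and 89 and 80 with the series table. They were 1048 and 1018 with no filter, 1177 and 495 with the other ratios, 109 and 156 without the corner, and 128 and 76 with the added fit. RAB probes entering were 73, but 100 with no filter and 55 without the corner. The median of all measured probes was -0.02 with the added fit. The fits differ by 1 spot, so normexp counts and values depend on whether that spot is kept. For RAB15 the difference was small (-1.15 and -1.08). Fewer probes entered without the corner and more with no filter; otherwise the cause was not tested. RAB15 was called lower under all of them, with -1.03 (series table), -1.08 (added fit) and -1.15 (normexp) nearest the threshold. RAB40B was 0.57 with normexp, 0.73 with the series table and 0.75 with the added fit, RAB1B -0.98 with the added fit and RAB8A -0.16 with normexp, -0.35 with the series table and -0.32 with the added fit, and none of these was called. Of 189 recomputed values of 27 named probes, 60 moved by over the technical SD and 15 changed sign, 0 of them of a called probe. For the 27 RAB probes dim on both arrays, signal over background sets the limit. No paired analysis was possible because each group had 1 array.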
